A study of Homo sapiens with 12 samples.

Results

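The liver-type secreted and acute-phase genes described here are 5 genes, AGT, SERPINA1, SERPINA5, CFB and C4BPB, followed in SW480 cells, an established line of human colon cancer. They were chosen by symbol for a fall with GPD1L overexpression or for a change in opposite directions with overexpression and knockdown, and all 5 were found in both of the authors' tables, of 13583 genes listed for the overexpression and 13554 for the knockdown. GPD1L encodes a relative of the cytosolic glycerol-3-phosphate dehydrogenase. Stably transfected cells overexpressing GPD1L (OE, 3 libraries) were set against cells carrying the vector (Vector, 3 libraries), and cells with a short hairpin RNA against GPD1L (shGPD1L, 3 libraries) against cells with a control hairpin (shNC, 3 libraries). All were SW480 cells with no further agent named. The number of clones or of hairpin sequences behind each group is not stated, so differences between the lines other than the GPD1L level cannot be told apart from it. The labels do not state whether the 3 libraries within each group are separate cultures, so spreads and p-values measure the differences between these samples, which may be technical.

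In the body these proteins are made mainly by hepatocytes and released into plasma. Serpins are protease inhibitors that trap their target through an exposed reactive loop. SERPINA1 (alpha-1 antitrypsin) inhibits neutrophil elastase, and SERPINA5 (protein C inhibitor) inhibits activated protein C, kallikreins and urokinase. AGT (angiotensinogen) belongs to the serpin family by sequence but is not an inhibitor: it is the precursor from which the angiotensin peptides are cut. CFB (factor B) supplies the protease of the alternative complement pathway, and C4BPB is the beta chain of C4b-binding protein, which restrains the classical pathway and binds protein S. The acute-phase response is the change in hepatic secretion under interleukin-6, acting through STAT3, and interleukin-1, acting through NF-kB and C/EBP factors, while HNF4A helps maintain the basal liver programme.

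AGT (ENSG00000135744) lies on chromosome 1, 230702523 to 230714297, minus strand, and C4BPB (ENSG00000123843) on the same chromosome at 207088842 to 207099993, plus strand (GRCh38, GENCODE release 29). SERPINA1 (ENSG00000197249, chromosome 14, 94376747 to 94390693, minus strand) and SERPINA5 (ENSG00000188488, chromosome 14, 94561442 to 94593120, plus strand) lie 171 kb apart in a cluster of clade A serpins. CFB (ENSG00000243649, chromosome 6, 31945650 to 31952084, plus strand) shares its strand with C2, its classical-pathway paralog. The 2 spans overlap only from 31945650 to 31945672, so reads from that short stretch may be shared between them. SERPINA4, which shares part of its span with SERPINA5, was not listed in either table. The promoters of 2 of the genes that were lower together in OE are shown because they carry letters of the acute-phase factors named above. Each window runs from 250 bases before a RefSeq transcript start to 50 after it (GRCh38.p14), written 5′ to 3′ on the strand of the gene, and capitals mark every match to a searched motif.
AGT, chr1:230714073-230714372, minus strand: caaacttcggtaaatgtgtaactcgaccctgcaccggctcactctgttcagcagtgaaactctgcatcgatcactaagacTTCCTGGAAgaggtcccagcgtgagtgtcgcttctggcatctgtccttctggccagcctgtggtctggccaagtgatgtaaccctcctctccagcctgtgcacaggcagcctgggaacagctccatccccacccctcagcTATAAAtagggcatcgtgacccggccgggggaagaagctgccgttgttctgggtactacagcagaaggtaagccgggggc
CFB, chr6:31945845-31946144, plus strand: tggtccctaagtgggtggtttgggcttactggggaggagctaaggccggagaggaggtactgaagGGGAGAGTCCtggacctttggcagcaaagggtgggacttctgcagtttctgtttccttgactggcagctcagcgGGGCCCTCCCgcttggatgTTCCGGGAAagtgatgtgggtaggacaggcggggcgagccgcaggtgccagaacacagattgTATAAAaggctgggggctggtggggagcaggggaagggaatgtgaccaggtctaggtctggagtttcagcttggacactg

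Motifs were searched on both strands as letters only. The STAT motif TTCNNNGAA was present in AGT from position -170 relative to the start, in CFB from -92, and in SERPINA5 from -220. C4BPB has 3 windows, of which the 2 that overlap share 1 such site, and 7.67% of 34796 windows of the same length hold it. The NF-kB motif, GGGA and CC with 4 bases between them, was present in CFB from -185 on the plus strand and from -111 on the minus strand. The minus-strand match reads GGGCCCTCCC in the printed sequence. SERPINA5 held the motif from -85, also on the minus strand, and 25.6% of all windows held it. SERPINA1, also lower in OE, held neither the STAT nor the NF-kB motif in its windows. The TATAAA box was present from -30 in AGT and in CFB, and in 11.6% of all windows. CAAAGTCC, for HNF4, was present in the most upstream window of C4BPB, on the minus strand, and in 1.19% of all windows. TTGCNNAA, for C/EBP, was not in the windows of the 5 genes and is in 10.5% of all. The motifs do not overlap one another in the printed sequences. A match to these letters is a description and does not show that a factor binds there.

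GPD1L itself was listed at 22.3, 22.8 and 22.1 FPKM in OE, against 10.7, 10.2 and 11.1 FPKM in Vector, and at 1.55, 1.26 and 2.23 FPKM in shGPD1L, against 8.68, 8.01 and 9.10 FPKM in shNC. FPKM divides the fragments of a gene by its length and by the size of the library, so levels of different genes can be set side by side. Reads per library are unknown. Fold changes are differences of mean log2(FPKM + 1), which understate changes at low FPKM. Testing used limma and took genes with a mean of 1 FPKM or more in the 6 libraries compared, and a gene is said to rise or fall where its Benjamini-Hochberg adjusted p over all genes was under 0.05. The 5 genes were chosen on these same contrasts, so their own changes are given without a test. Of 10 markers of colon epithelium all were listed in the overexpression table and 9 in the knockdown table, KRT8, KRT18, EPCAM and CDX2 among them, with sums of 4154 to 4285 FPKM in OE against 3803 to 3912 FPKM in Vector and of 4221 to 4500 FPKM in shGPD1L against 5084 to 5446 FPKM in shNC. Keratins make up most of these sums: of 9 colon markers tested in the overexpression, 5 fell and 3 rose, with a median log2 change of -0.21, and VIL1 fell by 0.52 (adjusted p = 0.000252). In the knockdown limma called 0 of 9, with 5 at an unadjusted p under 0.05 and a median of -0.25. Of 12 hepatocyte markers only APOH and CYP2E1 were listed, and ALB, APOA1 and TTR were not. The summed hepatocyte markers lay at 1.48 to 1.70 FPKM in OE against 3.03 to 3.87 FPKM in Vector, and at 1.49 to 2.06 FPKM in shGPD1L against 1.41 to 1.76 FPKM in shNC. Macrophage and leukocyte markers were limited to CD68 and CD14, 2 of 9, at 18.4 to 19.5 FPKM in OE against 17.3 to 19.7 FPKM in Vector, and at 20.0 to 28.7 FPKM in shGPD1L against 27.8 to 32.0 FPKM in shNC. CD14 itself fell, with 0.811 ± 0.210 FPKM in OE and 1.81 ± 0.229 FPKM in Vector (SD, n = 3 each; adjusted p = 0.00803). Of 8 fibroblast markers COL1A1 and PDGFRB were listed, at sums of 1.19 to 1.37 FPKM in OE against 2.06 to 2.31 FPKM in Vector, and of 1.29 to 1.63 FPKM in shGPD1L against 1.15 to 1.55 FPKM in shNC. Of 6 endothelial markers only ENG was listed, at 0.655 to 0.908 FPKM in OE against 0.497 to 0.616 FPKM in Vector, and at 0.357 to 0.466 FPKM in shGPD1L against 0.566 to 0.597 FPKM in shNC. The hepatocyte and fibroblast sums were thus lower in OE than in Vector, as 4 of the 5 genes were, and ENG was higher in OE and lower in shGPD1L than in its controls, as C4BPB was. The part of these markers in the results was not tested. In bulk RNA fewer cells expressing a gene and less RNA per cell cannot be told apart.

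The secreted serpins and AGT were well below their Vector level in OE cells, and so was factor B, while C4BPB stood higher in OE than in Vector. AGT was at 4.46, 4.29 and 4.40 FPKM in OE, against 10.7, 11.5 and 11.3 FPKM in Vector. All 3 OE libraries lay below all 3 Vector libraries, with means of 4.38 ± 0.0866 and 11.2 ± 0.418 FPKM (SD, n = 3 each) and a log2 change of -1.18 (SE 0.060). SERPINA5 was at 4.54, 4.27 and 4.62 FPKM in OE, against 11.8, 11.9 and 11.2 FPKM in Vector. Its groups did not overlap either, and its log2 change of -1.21 (SE 0.062) was the lowest of the 5 genes. SERPINA1 was at 13.1, 15.2 and 15.5 FPKM in OE, against 26.2, 26.1 and 27.8 FPKM in Vector, a log2 change of -0.83 (SE 0.069). Its OE libraries were the most variable of the 5 genes in that group, with a coefficient of variation of 8.94%. CFB was at 9.73, 9.85 and 9.62 FPKM in OE, against 19.8, 19.5 and 20.6 FPKM in Vector, a log2 change of -0.97 (SE 0.051). The OE level was 0.488 of the Vector level for CFB and 0.548 for SERPINA1, against 0.392 for AGT and 0.385 for SERPINA5.

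C4BPB differed from the other 4 genes. It was at 33.0, 29.8 and 30.5 FPKM in OE, against 24.1, 25.9 and 26.7 FPKM in Vector, a ratio of means of 1.22 and a log2 change of 0.27 (SE 0.059). Every OE library was above every Vector library. Groups that do not overlap were common in this table: 41.8% of 12208 genes tested had them, 17.6% with lower and 24.2% with higher values in OE, and 37.9% had an unadjusted limma p under 0.05. Since the 5 genes were picked for their direction here, nothing is read from their own count of 4 lower and 1 higher.

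**Figure D1:**
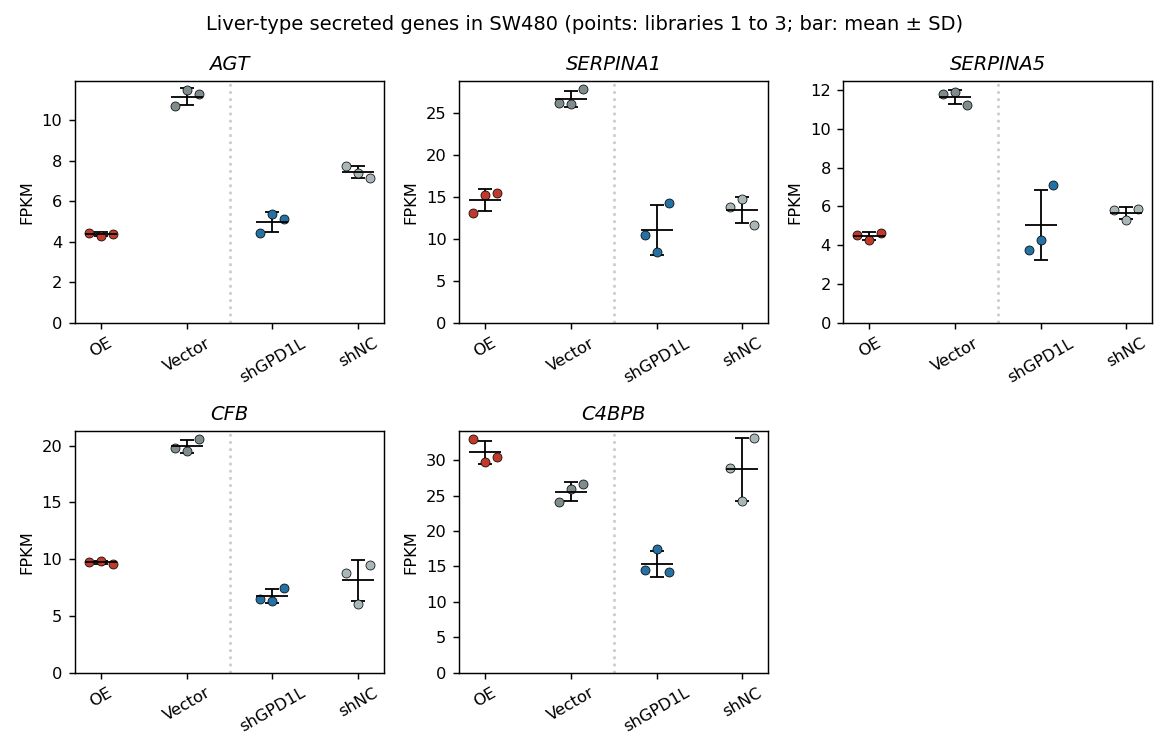
FPKM (vertical axis) of the 5 genes in each library of the 4 groups (horizontal axis), with the overexpression table left of the dotted line and the knockdown table right of it; points are libraries and bars the mean ± SD (n = 3). The OE libraries of AGT, SERPINA1, SERPINA5 and CFB sit below all their Vector libraries, and C4BPB is lowest in shGPD1L, at 14.2 to 17.5 FPKM.

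In the knockdown, C4BPB and AGT were lower in every shGPD1L library than in any shNC library, and the other 3 genes overlapped. C4BPB was at 14.5, 17.5 and 14.2 FPKM in shGPD1L, against 28.9, 24.2 and 33.1 FPKM in shNC. Its mean was 15.4 ± 1.85 FPKM in shGPD1L and 28.7 ± 4.42 FPKM in shNC (SD, n = 3 each), 0.536 of the control level, with a log2 change of -0.85 (SE 0.13). C4BPB therefore stood on opposite sides of its control in the 2 tables, above it in OE and below it in shGPD1L. AGT was at 4.46, 5.39 and 5.11 FPKM in shGPD1L, against 7.74, 7.42 and 7.18 FPKM in shNC, a log2 change of -0.50 (SE 0.094). AGT was thus below its control in both tables, at 0.392 of Vector in OE and 0.670 of shNC in shGPD1L. Of 12156 genes tested in the knockdown, 24.7% had groups that did not overlap, 15.1% with lower and 9.54% with higher values in shGPD1L, and 16.3% had an unadjusted limma p under 0.05.

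The other 3 genes had small negative differences that were within the spread of the libraries. SERPINA1 was at 10.5, 8.46 and 14.3 FPKM in shGPD1L, against 13.8, 14.7 and 11.7 FPKM in shNC. SERPINA5 was at 3.74, 4.27 and 7.11 FPKM in shGPD1L, against 5.83, 5.28 and 5.86 FPKM in shNC. Replicate 3 of shGPD1L held the highest value of its group for both serpins, above every shNC library for SERPINA5. CFB was at 6.53, 6.33 and 7.48 FPKM in shGPD1L, against 8.77, 6.09 and 9.53 FPKM in shNC, where replicate 2 was the lowest of the 6 libraries. The log2 changes were -0.28 (SE 0.17) for SERPINA1, -0.18 (SE 0.19) for SERPINA5 and -0.21 (SE 0.15) for CFB.

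These values depended on single libraries. Without shGPD1L replicate 3 the log2 change was -0.46 for SERPINA1, -0.41 for SERPINA5 and -0.28 for CFB. Without shGPD1L replicate 2 it was -0.11 for SERPINA1 and -0.10 for SERPINA5, and without shGPD1L replicate 1 it was -0.02 for SERPINA5. For CFB it was -0.39 without shNC replicate 2 and -0.10 without shNC replicate 3. Leaving out any 1 library moved AGT only between -0.55 and -0.43 and C4BPB between -0.97 and -0.75. In the overexpression the same exercise kept AGT between -1.20 and -1.16, SERPINA5 between -1.23 and -1.18, CFB between -0.98 and -0.94, SERPINA1 between -0.87 and -0.76 and C4BPB between 0.23 and 0.30.

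**Figure D2:**
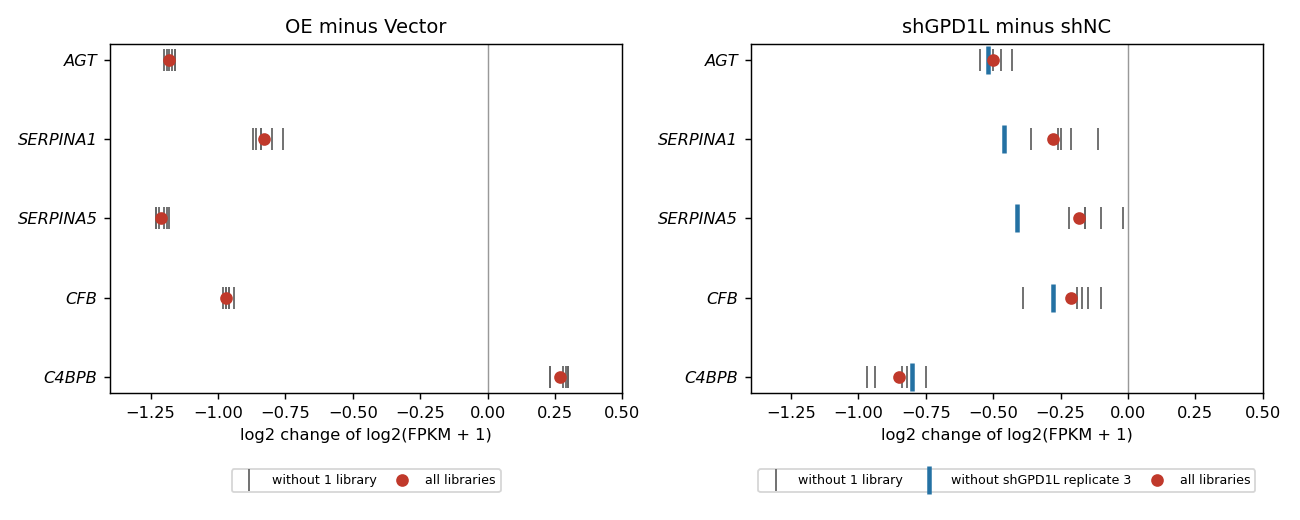
Log2 change of log2(FPKM + 1) (horizontal axis) of the 5 genes (vertical axis) in the overexpression (left panel) and the knockdown (right panel), with all libraries (points) and with each library left out in turn (ticks; the thick tick is without shGPD1L replicate 3). The ticks of each gene are close together in the overexpression, while those of SERPINA5 in the knockdown run from -0.41 to -0.02.

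The order of the levels was nearly the same in the 4 groups. C4BPB and SERPINA1 were the most abundant per length in each, followed by CFB, with AGT and SERPINA5 lowest. In OE, C4BPB (31.1 ± 1.68 FPKM) stood above SERPINA1 (14.6 ± 1.31 FPKM; SD, n = 3 each) without overlap. In Vector these genes overlapped, at 25.6 ± 1.31 FPKM for C4BPB and 26.7 ± 0.938 FPKM for SERPINA1 (SD, n = 3 each). They also overlapped in shGPD1L, and in shNC C4BPB stood above SERPINA1 without overlap. AGT and SERPINA5 overlapped in OE, Vector and shGPD1L, and AGT was above SERPINA5 in shNC without overlap. CFB overlapped its lower neighbour in both knockdown groups and in neither group of the other table. The genes are of middling abundance for these cells. Their mean levels ranged from the point where 23.2% of tested genes lie below, for AGT in OE, to the point where 80.7% do, for C4BPB in OE.

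The levels of the Vector and shNC control lines were also far apart for 4 of the 5 genes. Both lines are references of the contrasts the genes were chosen on, and genes chosen for being lower in OE tend to be high in Vector, so these gaps are a description and support nothing. Whether both tables were scaled in common is not known, so these levels are set side by side without a test. CFB averaged 20.0 ± 0.581 FPKM in Vector and 8.13 ± 1.81 FPKM in shNC (SD, n = 3 each), a ratio of 2.46. SERPINA5 averaged 11.6 ± 0.404 FPKM in Vector and 5.66 ± 0.329 FPKM in shNC, a ratio of 2.06. SERPINA1 averaged 26.7 ± 0.938 FPKM in Vector and 13.4 ± 1.51 FPKM in shNC, a ratio of 1.99, and AGT had a ratio of 1.5. For these 4 genes every Vector library was above every shNC library, as was the case for 27.3% of the 11207 genes tested in both tables. C4BPB had a ratio of 0.890 and overlapping libraries. On the log2(FPKM + 1) scale Vector minus shNC was 1.22 for CFB, and 0.625% of the 11207 genes had a difference at least as high. The differences were 0.95 for SERPINA1 and 0.93 for SERPINA5, reached by 1.53% and 1.70% of genes. The difference was 0.53 for AGT, reached by 6.87% of genes, while the median over all genes was -0.01 with an interquartile range of -0.21 to 0.20.

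The gap between the control lines was thus about as wide as the gap between OE and Vector for SERPINA1 and CFB. SERPINA1 in OE, at 14.6 FPKM, overlapped its shNC libraries, and CFB in OE was 1.20 times its shNC mean. SERPINA5 in OE was 0.792 and AGT in OE 0.588 of the shNC mean, in both cases without overlap. Which difference between the lines goes with this was not tested.

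**Figure D3:**
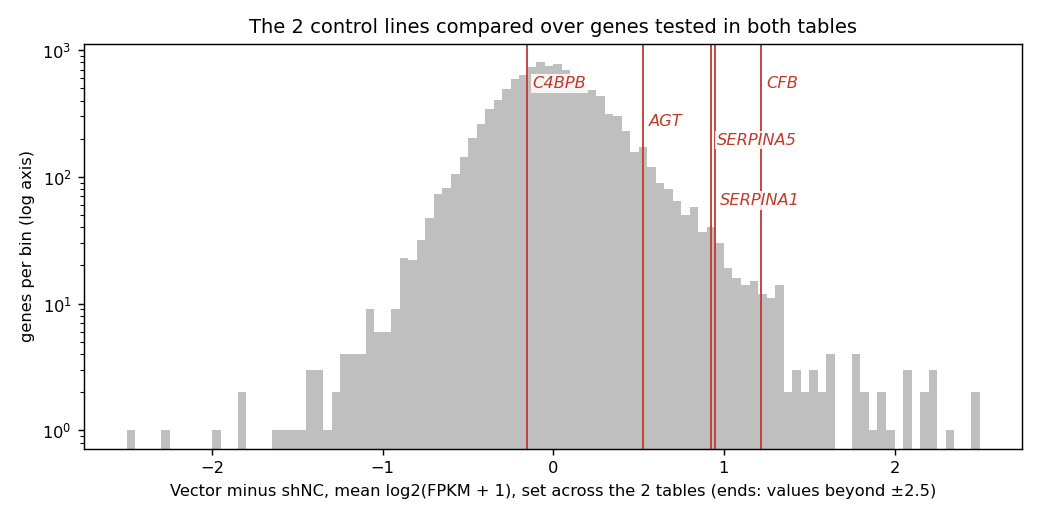
Distribution over 11207 genes of the difference in mean log2(FPKM + 1), Vector minus shNC (horizontal axis), as genes per bin on a log axis, with the 5 genes marked by vertical lines and values beyond the ends gathered in the outermost bins. CFB, SERPINA1 and SERPINA5 stand at 1.22, 0.95 and 0.93 on the right side of the distribution, and C4BPB at -0.15 near its centre.

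Within groups, the 5 genes varied from library to library in different ways. Over the 12 libraries, after each group mean was subtracted from log2(FPKM + 1), the 10 pairs of genes had Pearson r values from -0.74 to 0.62. SERPINA1 and C4BPB had the lowest, at -0.74, and -0.78 over the 9 libraries other than shGPD1L. SERPINA1 and SERPINA5 had the highest, at 0.62, but over those 9 libraries it was -0.58. CFB and C4BPB had an r of 0.55 over 12 libraries and 0.88 over those 9, where both were lowest in shNC replicate 2 and highest in shNC replicate 3 within shNC. These are descriptions over few libraries, in which the libraries of a table share its scaling.

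Genes with the most similar pattern were ranked by Pearson r over the 12 libraries, with each table centred on its own mean, among the 11207 genes. Such an r mainly follows the differences between groups that the 5 genes were chosen for, so it is high among the 4 genes lower in OE, and low between them and C4BPB, by that choice. For AGT they were the dipeptidase gene DPEP1 (r = 0.990), the secretory-pathway disulfide isomerase gene AGR2 (0.973) and the acyl-CoA synthetase gene ACSL6 (0.961). DPEP1 averaged 11.5 ± 0.909 FPKM in OE and 32.4 ± 1.93 FPKM in Vector, and 12.3 ± 1.86 FPKM in shGPD1L and 19.4 ± 0.788 FPKM in shNC (SD, n = 3 each). For SERPINA1 they were PIK3AP1 (0.975), the chemokine gene CCL5 (0.967) and PKDCC (0.961), and for SERPINA5 the transcription factor gene IRF8 (0.974), P2RX1 (0.972) and the folate receptor gene FOLR1 (0.969). For CFB they were the secreted protease gene HTRA1 (0.949), the decarboxylase gene DDC (0.935) and the carbonic anhydrase gene CA12 (0.932). Among the 5 genes, AGT, SERPINA1, SERPINA5 and CFB had r values from 0.821 to 0.925 with one another. C4BPB had r values from -0.156 to 0.098 with them, and its nearest genes were DLD (0.987), a subunit of mitochondrial dehydrogenase complexes, the proteasome gene PSMA1 (0.985) and the glucocorticoid-induced gene TSC22D3 (0.965). TSC22D3 averaged 17.8 ± 0.458 FPKM in OE and 16.2 ± 0.280 FPKM in Vector, and 5.59 ± 0.650 FPKM in shGPD1L and 9.96 ± 0.679 FPKM in shNC (SD, n = 3 each).

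Some neighbouring genes differed in the same direction as the gene beside them and others did not. Within 100 kb, AGT had 2 listed neighbours, SERPINA1 and SERPINA5 had 1 each, CFB had 12 and C4BPB had 3. Of 16 tested in the overexpression, limma called 4, SLC44A4, CAPN9, SERPINA3 and YOD1, each on the same side of its control as the gene it neighbours, against 22.4% called over all genes. In the knockdown limma called 0 of 15, with 3 at an unadjusted p under 0.05. C2, which overlaps CFB, was at 3.09 ± 0.354 FPKM in OE and 3.22 ± 0.248 FPKM in Vector (SD, n = 3 each), a log2 change of -0.05 (limma adjusted p = 0.734). NELFE and SKIV2L, the next genes downstream of CFB, had log2 changes of 0.19 and -0.02 in the overexpression (adjusted p = 0.10 and 0.859). SLC44A4, a choline transporter-like gene 66.6 kb from CFB, fell (log2 change -0.42, adjusted p = 0.00357). Beside AGT, the calpain gene CAPN9 fell with a log2 change of -0.36 (adjusted p = 0.0167), a call lost without Vector replicate 1 (0.0582), Vector replicate 2 (0.0547) or OE replicate 2 (0.0512), and the Golgi gene COG2 had a log2 change of -0.19 (adjusted p = 0.0693; 0.0440 without OE replicate 1). Both were also below shNC without overlap in shGPD1L, as AGT was, with log2 changes of -0.29 for CAPN9 and -0.31 for COG2 (adjusted p = 0.295 and 0.159). Near C4BPB, PFKFB2 had a log2 change of 0.11 in the overexpression and -0.35 in the knockdown (adjusted p = 0.293 and 0.190). YOD1, a deubiquitinase gene 35.9 kb from C4BPB that overlaps PFKFB2 on the other strand, averaged 9.20 ± 0.706 FPKM in OE and 7.71 ± 0.0611 FPKM in Vector (SD, n = 3 each; log2 change 0.23, adjusted p = 0.0450). The YOD1 call was lost without Vector replicate 1 (0.0949), 2 (0.109) or 3 (0.0954) and without OE replicate 1 (0.118) or 3 (0.120), and with no filter (0.0541), median-of-ratios scaling (0.0523) or quantile normalization (0.0579). YOD1 had a log2 change of 0.09 in the knockdown (adjusted p = 0.774). SERPINA3, 19.3 kb from SERPINA5, is described with the serpins.

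The genes around these 5 were followed in 8 lists. The lists cover serpins, complement, the angiotensin system, other plasma proteins, transcription factors, cytokine signalling, and the proteases that serpins meet with some receptors and cofactors. Of 112 list genes tested in the overexpression, 34 fell and 12 rose in OE, or 30.4% and 10.7%. Over all 12208 genes tested, 10.3% fell and 12.2% rose, 22.4% together. In the overexpression comparison with library totals set equal, the share of rising genes among all called genes was 71.5% in place of 54.2%, and among called list genes it was 29.2% in place of 26.1%. In the knockdown 4 of 107 list genes fell and 0 rose, against 0.592% of 12156 genes called, 0.477% lower and 0.115% higher. The lists were put together with earlier results of these data known, so the shares describe the lists and are not independent evidence.

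**Figure D4:**
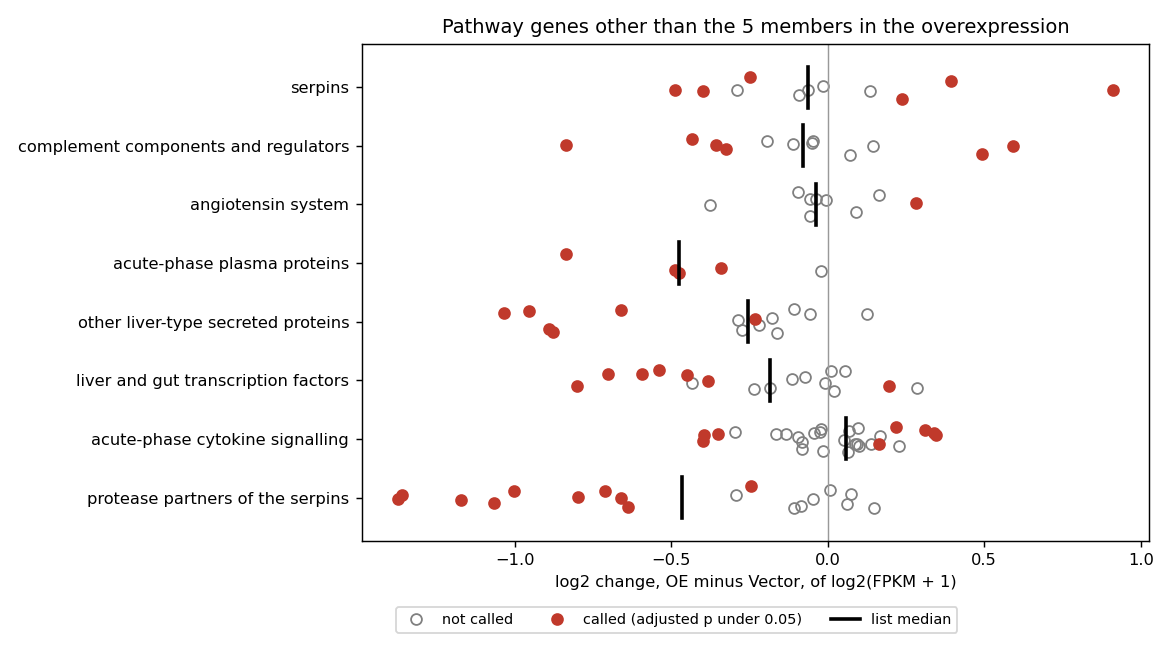
Log2 change of log2(FPKM + 1), OE minus Vector (horizontal axis), of the tested genes of the 8 lists (vertical axis) other than the 5 members; filled points passed the limma test, open points did not, and black lines are list medians. The filled points of the other liver-type secreted proteins and of the acute-phase plasma proteins are all below 0, while the serpins have 3 on either side.

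Secreted plasma proteins beyond the 5 genes were also lower in OE. Of 60 other liver-type secreted proteins 17 were listed and 14 tested; 6 fell, 0 rose and 8 did not pass, with a median log2 change of -0.25 against 0.02 over all genes tested. The apolipoprotein gene APOH was at 0.713, 1.08 and 0.675 FPKM in OE, against 2.23, 2.92 and 3.06 FPKM in Vector (log2 change -1.04, SE 0.13, adjusted p = 0.00168). APOC1, an apolipoprotein of plasma lipoproteins, averaged 7.18 ± 0.610 FPKM in OE and 14.9 ± 1.58 FPKM in Vector (SD, n = 3 each; adjusted p = 0.000498). Its neighbour APOE had a log2 change of -0.89 (adjusted p = 0.0287), with OE libraries from 1.20 to 3.52 FPKM, and lost its call without Vector replicate 1 (0.0627), Vector replicate 2 (0.0937), OE replicate 1 (0.0581) or OE replicate 2 (0.0718). Of 24 acute-phase plasma proteins 5 were tested; 4 fell and 0 rose, with a median of -0.48. LRG1, a glycoprotein induced in the acute phase, averaged 6.77 ± 0.284 FPKM in OE and 9.82 ± 0.669 FPKM in Vector (SD, n = 3 each; log2 change -0.48, adjusted p = 0.00300), and it overlaps the listed gene AC011498.4 on the same strand. The secreted phospholipase gene PLA2G2A had a log2 change of -0.84 (adjusted p = 0.0204; 0.0592 without Vector replicate 3). In the knockdown limma called 0 of 13 other liver-type secreted proteins and 0 of 3 acute-phase proteins, with 3 and 2 at an unadjusted p under 0.05.

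The serpins as a family moved both ways in the overexpression. Of 29 serpins other than the members 12 were listed and 11 tested; 3 fell, 3 rose and 5 did not pass, with a median of -0.06. The intracellular serpins SERPINB8 and SERPINB1 rose by 0.39 and 0.24 on the log2 scale (adjusted p = 0.00808 and 0.00657). The collagen chaperone gene SERPINH1 fell by 0.40 (adjusted p = 0.00979) and SERPINE2, an inhibitor of thrombin and urokinase, by 0.25 (adjusted p = 0.00995). SERPINA3, the acute-phase antichymotrypsin gene, was at 0.946, 1.5 and 1.5 FPKM in OE, against 2.25, 2.44 and 2.00 FPKM in Vector (log2 change -0.49, adjusted p = 0.0248), and lost its call without Vector replicate 1 (0.0658), Vector replicate 2 (0.0830) or OE replicate 1 (0.0534). In the knockdown limma called 0 of 9 serpins, with 5 at an unadjusted p under 0.05. Without shGPD1L replicate 3, SERPINB1 and SERPINB5 were called lower and SERPINH1 higher there.

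Among the proteases that these serpins can meet, listed with the non-protease genes PLAUR, PROCR and F3, all called changes in OE were falls. Of 18 genes of this list tested, 10 fell, 0 rose and 8 did not pass, with a median of -0.46. The kallikrein genes KLK11 and KLK14 averaged 1.91 ± 0.435 and 1.72 ± 0.172 FPKM in OE, against 6.52 ± 0.767 and 6.01 ± 0.815 FPKM in Vector (SD, n = 3 each; adjusted p = 0.000476 and 0.000242), and KLK7 had a log2 change of -1.17 (adjusted p = 0.000127). Kallikrein genes resemble one another in sequence, and whether reads were shared among them was not tested. In the knockdown 2 of 18 fell, the near-identical trypsinogen genes PRSS1 and PRSS2, with log2 changes of -1.39 and -1.63 (adjusted p = 0.00907 and 0.00675). Both calls were lost without any 1 of the shNC libraries: for PRSS1 the adjusted p was 0.0948, 0.0662 and 0.10 without shNC replicates 1, 2 and 3, and for PRSS2 it was 0.0677, 0.0522 and 0.0836.

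Complement genes were divided. Of 45 complement components and regulators 17 were listed and 12 tested in the overexpression; 4 fell, 2 rose and 6 did not pass, with a median of -0.08. VTN (vitronectin), a plasma protein that blocks the terminal complement complex, was at 27.7, 27.4 and 28.7 FPKM in OE, against 48.9, 56.6 and 47.2 FPKM in Vector (log2 change -0.84, SE 0.069, adjusted p = 0.000306). VTN overlaps SARM1 on the other strand, and strandedness is not stated. The protease gene CFD (factor D), which cuts factor B, had a log2 change of -0.36 (adjusted p = 0.0257) and lost its call without Vector replicate 1 (0.0794), Vector replicate 2 (0.0859), OE replicate 1 (0.0757) or OE replicate 2 (0.0764). The complement inhibitor gene SUSD4 had -0.43 (adjusted p = 0.0248), lost without Vector replicate 2 (0.0697), Vector replicate 3 (0.0744), OE replicate 1 (0.0698) or OE replicate 2 (0.0651). The rises were those of CLU (clusterin), at 56.6 ± 6.99 FPKM in OE and 37.0 ± 1.83 FPKM in Vector (adjusted p = 0.00269), and of the membrane regulator CD55, at 60 ± 2.21 FPKM in OE and 42.4 ± 0.445 FPKM in Vector (SD, n = 3 each; adjusted p = 0.000465). C3, the substrate of the factor B convertase, lay under the filter in both tables, at 0.202 ± 0.00283 FPKM in OE and 0.427 ± 0.0919 FPKM in Vector, and 0.466 ± 0.195 FPKM in shGPD1L and 0.374 ± 0.0195 FPKM in shNC (SD, n = 3 each). C4A and C4B, near-identical genes whose product C4b-binding protein regulates, were also under 1 FPKM. C4BPA, which encodes the alpha chain that C4BPB joins, was not listed in either table. In the knockdown limma called 0 of 12 complement genes, with 7 at an unadjusted p under 0.05. Without shGPD1L replicate 3, CD46, CD55 and VTN were called lower there.

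The angiotensin system genes other than AGT changed little. Of 19 genes 10 were listed and 9 tested in the overexpression, and the receptor gene AGTR1 was not listed in either table. The 1 called gene, the angiotensin-degrading peptidase gene NLN, averaged 8.33 ± 0.560 FPKM in OE and 6.67 ± 0.134 FPKM in Vector (SD, n = 3 each; adjusted p = 0.0196). NLN overlaps SGTB on the other strand, and its call was lost without Vector replicate 1 (0.0563), Vector replicate 2 (0.0626), OE replicate 1 (0.0567) or OE replicate 3 (0.0510). In the knockdown 1 of 8 fell, the peptidase gene THOP1, at 16.3, 19.9 and 20.2 FPKM in shGPD1L, against 30.1, 29.7 and 28.5 FPKM in shNC (log2 change -0.63, adjusted p = 0.0472). That call was lost without shNC replicate 1 (0.245), 2 (0.188) or 3 (0.236), and without shGPD1L replicate 1 (0.158) or 2 (0.0772). The THOP1 call was also lost under each of the 3 other scalings (0.0568 to 0.0686), with no filter (0.0526) and with eBayes without trend (0.0610).

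Several transcription factors of the liver and gut were lower in OE, while others were not. Of 25 factors 18 were listed and 17 tested; 6 fell, 1 rose and 10 did not pass, with a median of -0.19. CEBPA, which maintains hepatocyte gene expression, was at 8.18, 8.58 and 9.13 FPKM in OE, against 15.3, 17.4 and 14.7 FPKM in Vector (log2 change -0.80, SE 0.074, adjusted p = 0.000512). The intestinal homeobox gene CDX1 averaged 14.5 ± 0.479 FPKM in OE and 24.3 ± 1.98 FPKM in Vector, and CDX2 14.6 ± 0.723 FPKM in OE and 22.6 ± 2.32 FPKM in Vector (SD, n = 3 each; adjusted p = 0.000554 and 0.00217). CEBPG rose by 0.20 on the log2 scale (adjusted p = 0.0308). Its call was lost without Vector replicate 2 (0.0982) or 3 (0.0811), without OE replicate 1 (0.0820) or 2 (0.0806), and with eBayes without trend (0.0571). HNF4A averaged 22.6 ± 2.27 FPKM in OE and 21.7 ± 2.01 FPKM in Vector, and CEBPB 91.0 ± 9.85 FPKM in OE and 90.9 ± 14.9 FPKM in Vector (SD, n = 3 each; adjusted p = 0.692 and 0.962). FOXA2 had a log2 change of -0.24 (adjusted p = 0.123). With the tables set side by side without a test, CEBPA averaged 15.8 FPKM in Vector and 9.30 FPKM in shNC, and CDX1 24.3 FPKM in Vector and 13 FPKM in shNC. CDX2 averaged 22.6 FPKM in Vector and 21.9 FPKM in shNC. Of the factors that did not pass in the overexpression, CEBPB averaged 90.9 FPKM in Vector and 42.0 FPKM in shNC. HNF4A averaged 21.7 FPKM in Vector and 24.7 FPKM in shNC. In the knockdown limma called 0 of 16 factors, with 1 at an unadjusted p under 0.05, CEBPA, at 6.96 ± 0.614 FPKM in shGPD1L and 9.30 ± 0.282 FPKM in shNC (SD, n = 3 each; log2 change -0.37, adjusted p = 0.120). Whether these factors set the levels of the secreted genes was not tested.

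**Figure D5:**
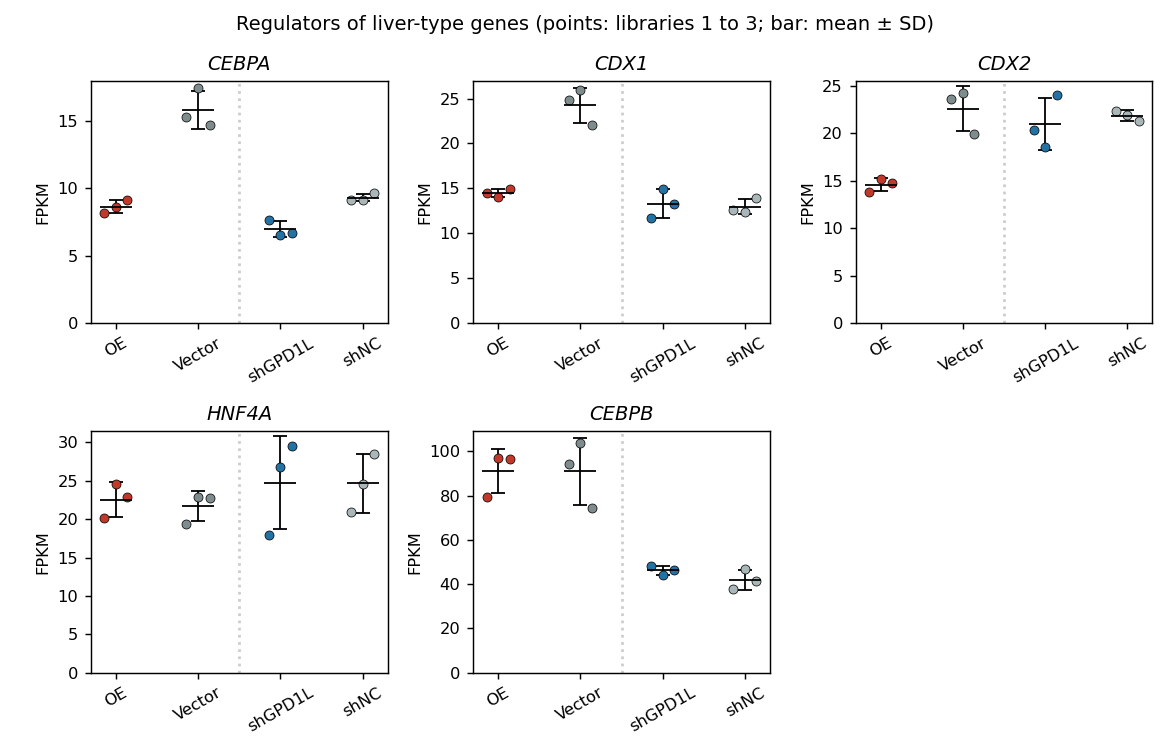
FPKM (vertical axis) of 5 transcription factor genes in each library of the 4 groups (horizontal axis); points are libraries and bars the mean ± SD (n = 3). CEBPA, CDX1 and CDX2 lie lower in OE than in Vector without overlap, and HNF4A and CEBPB overlap.

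Cytokine signalling genes of the acute phase did not move in 1 direction. Of 28 tested in the overexpression, 5 rose, 3 fell and 20 did not pass, with a median of 0.06. The NF-kB subunit genes RELA, RELB and NFKB2 rose by 0.31, 0.35 and 0.34 on the log2 scale (adjusted p = 0.00861, 0.00891 and 0.00183). The adaptor gene MYD88 fell by 0.40 (adjusted p = 0.00463), as did NFKBIZ (adjusted p = 0.0112), which encodes a nuclear NF-kB cofactor. The inhibitor gene NFKBIA had a log2 change of -0.35 (adjusted p = 0.0176), lost without Vector replicate 2 (0.0553) or Vector replicate 3 (0.0503). STAT3 averaged 15.0 ± 0.858 FPKM in OE and 16.1 ± 0.230 FPKM in Vector (SD, n = 3 each; adjusted p = 0.246), the receptor subunit gene IL6ST had a log2 change of 0.14 (adjusted p = 0.193) and NFKB1 of -0.04 (adjusted p = 0.698). In the knockdown 1 of 29 fell, the decoy receptor gene IL1R2, at 0.601, 0.778 and 0.487 FPKM in shGPD1L, against 1.72, 1.87 and 2.23 FPKM in shNC (log2 change -0.86, adjusted p = 0.0396). That call was lost without shNC replicate 1 (0.195), 2 (0.174) or 3 (0.237), without shGPD1L replicate 1 (0.171) or 2 (0.0772), and with quantile normalization (0.0622). STAT3 averaged 21.6 ± 2.5 FPKM in shGPD1L and 16.9 ± 0.773 FPKM in shNC (SD, n = 3 each; adjusted p = 0.175), and was called higher without shGPD1L replicate 3 (log2 change 0.41, adjusted p = 0.0378).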

How the data were processed

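Poly(A) RNA of 12 SW480 libraries in 4 groups of 3 was sequenced. Trizol extraction was followed, per the labels' protocols, by capture on oligo(dT) beads, fragmentation and priming with random hexamers. The authors deposited 1 table of FPKM values per comparison. HISAT2, StringTie, DESeq2 and GRCh38 are named, without versions or roles, in the submitters' processing notes; their annotation, filters and strandedness are not stated there. Low FPKM values did not fall on steps of whole reads, so the depth is unknown and no counting interval is given.

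Libraries were grouped by title, because the genotype labels change the digit in GPD1L with the replicate number, taken here as a slip. Identifiers were matched to GENCODE release 29 (GRCh38), and all 12388 and 12411 annotated identifiers matched. Sequences are from RefSeq (GRCh38.p14), where promoters of all 5 genes were found. Values were tested within a table by limma 3.58.1 (R 4.3.3, trend) on log2(FPKM + 1) for genes averaging at least 1 FPKM; figures used matplotlib 3.10.9. The test was checked on simulated data.

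The members and gene lists were chosen with earlier results of these data known. Named genes are the members; up to 3 rising and 3 falling called genes per list and comparison; a set of regulators and partners; listed genes within 100 kb of a member; and the 3 most similar genes per member. Some genes named by this rule are counted but not reported here. Same-numbered libraries did not deviate together, so no block was used. Alternatives were pseudocounts of 0.1 and 0.5, scaling to equal library totals, by median of ratios or by quantiles, no filter or 1 at 5 FPKM, eBayes without trend or robust, a replicate block, and leaving out each library.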

Additional observations from a re-analysis of the deposited data

How the results depend on the processing

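Over the 16 alternatives the sign of each member's log2 change was the same as reported in both comparisons. In the overexpression, 8 of 80 member values moved by more than the SD between replicates, all for AGT, SERPINA5 or CFB, with pseudocounts of 0.1 or 0.5 or equal library totals. In the overexpression comparison, leaving out each library in turn gave 1550 to 1980 called genes, against 2740 with all libraries, and 34 to 43 called list genes against 46. In the knockdown comparison it gave 0 to 609 called genes, against 72, and 0 to 15 called list genes, against 4; the 609 and the 15 were without shGPD1L replicate 3, and with 0 called genes, as without shNC replicate 2 or 3, 1408 and 1126 had an unadjusted limma p under 0.05. With quantile normalization 25 genes and 2 list genes were called in the knockdown. With a replicate block 3 genes and 1 list gene were called in the knockdown and 2021 genes and 42 list genes in the overexpression, and among named genes the calls lost were those of IL1R2 (0.196), THOP1 (0.209), PRSS1 (0.0513) and TSC22D3 (0.195) in the knockdown and of CFD (0.0634), DLD (0.0852), PDGFRB (0.0533) and YOD1 (0.0694) in the overexpression; same-numbered libraries correlated between -0.18 and 0.02 in their deviations, so the numbers do not pair them. The median change over all genes shifted by at most 0.045 (log2) between scalings. Of the values of other named genes, 32 of 1180 lost and 11 gained a call in the knockdown, and 60 of 1227 lost and 10 gained one in the overexpression. Reads per library are unknown, so counting error at low FPKM, as for APOH, IL1R2 or SERPINA3, cannot be given.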
